A study of Mus musculus with 6 samples.

Results

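The limb and mesenchyme patterning factors described here are 10 transcription factor genes taken by symbol, Tbx4, Tbx5, Pitx1, Tbx15, Tbx18, Twist1, Twist2, Msx1, Msx2 and Prrx1, out of 55487 genes in the deposited tables. Their RNA was measured by RNA-seq in mouse embryonic fibroblasts (MEFs), connective-tissue cells grown out of embryos, in 3 knockout (KO) and 3 wild-type (WT) libraries, with 1 library of each genotype at passages 2, 3 and 4. A passage is a round of detaching and replating a culture. All 6 titles call the cells controls, and the labels used here give neither the gene that was knocked out, nor its allele, nor the age, number or strain of the embryos. Genotype was taken from the library titles. At passages 3 and 4 the genotype tag of the KO library contradicts its title and reads WT. Nothing says that the 3 passages of a genotype came from separate cultures, so the p-values describe library-to-library spread, which may be technical.

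The KO libraries held 27361852, 67760880 and 30473493 expected counts (read counts assigned to genes by a model) at passages 2, 3 and 4, and the WT libraries held 42335628, 41933793 and 24853121. Xist, the RNA of the inactive X chromosome, lay between 417 and 567 CPM (counts scaled to library size) in KO libraries and between 0.118 and 0.301 CPM in WT libraries. The sum of the Y-linked genes Ddx3y, Eif2s3y, Kdm5d and Uty lay between 0 and 1.40 CPM in KO libraries and between 168 and 188 CPM in WT libraries. These transcripts divide the libraries as the titles do and not as the tag does. Genotype and sex therefore cannot be told apart in any difference given here. The cell label was checked with 10 fibroblast marker genes such as Col1a1 and Pdgfra, which summed to 28330 to 32470 CPM in KO libraries and 48980 to 60000 CPM in WT libraries. Of 7 epithelial markers, Epcam and Esrp1 stayed under 1 CPM in every library, while Krt5, Krt14, Krt18, Krt8 and Cldn4 exceeded 1 CPM in at least 1 library, with Krt5 highest at 5.93 CPM in the WT library of passage 2.

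Limb buds and body wall are laid down in the embryo by mesenchyme, loose cells whose position and fate are set by combinations of transcription factors. In the limbs Tbx5 acts in the forelimb bud, while Pitx1 acts upstream of Tbx4 in the hindlimb bud. Twist1, Twist2, Msx1, Msx2 and Prrx1 act more widely in mesenchyme of the limb and head, and fibroblasts grown from an embryo can keep part of the pattern of the place they came from.

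The promoters of 5 genes are shown. They belong to the pairs of related genes whose fitted changes between KO and WT differed in sign (Twist1 and Twist2, Msx1 and Msx2) and to Tbx4, which fell with passage. None of the changes of these pairs passed in the main comparison of KO with WT given below. Each is the RefSeq GRCm38.p6 sequence of 250 bases directly before the start, 5′ to 3′ on the gene's strand, and 7 of the 10 genes had an entry. Capitals mark matches on either strand to CANNTG (the E-box, the kind of site that Twist proteins bind), TAATTG (a core for Msx homeodomains), AGGTGTGA (a T-box half-site), TATAAA (the TATA box) or GGGCGG (the GC box).
Twist1 (chr12:33957421-33957670, plus strand): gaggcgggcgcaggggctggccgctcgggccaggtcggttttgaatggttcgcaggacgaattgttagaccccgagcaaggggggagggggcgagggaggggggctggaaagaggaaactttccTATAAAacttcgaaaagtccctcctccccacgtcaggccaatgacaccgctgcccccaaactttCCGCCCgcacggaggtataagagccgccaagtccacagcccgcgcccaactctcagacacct
Twist2 (chr1:91801211-91801460, plus strand): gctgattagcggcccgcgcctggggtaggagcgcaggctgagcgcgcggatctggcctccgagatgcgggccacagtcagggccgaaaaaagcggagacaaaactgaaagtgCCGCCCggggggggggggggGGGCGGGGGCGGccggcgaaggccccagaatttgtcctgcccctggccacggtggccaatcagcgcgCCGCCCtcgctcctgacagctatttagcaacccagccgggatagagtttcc
Msx1 (chr5:37824586-37824835, minus strand): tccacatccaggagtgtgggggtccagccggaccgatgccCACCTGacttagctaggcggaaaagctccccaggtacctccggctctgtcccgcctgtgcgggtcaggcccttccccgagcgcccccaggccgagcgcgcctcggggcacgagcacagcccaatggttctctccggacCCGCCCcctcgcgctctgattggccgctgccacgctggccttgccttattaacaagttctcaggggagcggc
Msx2 (chr13:53472781-53473030, minus strand): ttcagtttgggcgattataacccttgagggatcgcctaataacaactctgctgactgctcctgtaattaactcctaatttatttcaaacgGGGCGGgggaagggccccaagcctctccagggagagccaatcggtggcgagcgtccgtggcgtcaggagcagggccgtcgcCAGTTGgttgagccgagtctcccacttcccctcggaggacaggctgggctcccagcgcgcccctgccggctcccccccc
Tbx4 (chr11:85896515-85896764, plus strand): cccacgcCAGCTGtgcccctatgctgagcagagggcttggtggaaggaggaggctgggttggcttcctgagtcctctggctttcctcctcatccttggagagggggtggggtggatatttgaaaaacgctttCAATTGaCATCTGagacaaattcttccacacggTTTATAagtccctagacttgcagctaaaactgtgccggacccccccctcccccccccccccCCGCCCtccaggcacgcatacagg
The Twist2 promoter held 4 GC boxes, of which a pair lie end to end, and the Twist1 promoter held 1 GC box and 1 TATA box. Neither Twist promoter had an E-box in this window. The Msx1 and Msx2 promoters each held 1 E-box and 1 GC box. The Tbx4 and Msx2 windows lie within the annotated genes, at starts further along than the outermost ones. The Tbx4 promoter held 3 E-boxes, 1 TATA box and 1 GC box. None of the 7 windows held TAATTG or AGGTGTGA. Among 32851 promoter windows of the same length, 66.2% held an E-box, 32.7% a GC box, 12.4% a TATA box, 7.2% TAATTG and 1.1% AGGTGTGA. A match is a stretch of letters and says nothing here about binding.

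Levels were compared between genes as TPM, which scale counts by transcript length. All 10 genes passed the filter on low counts, and their mean TPM over the 6 libraries spanned from the upper end of all expressed genes to the lower end. Prrx1, a paired-type homeobox gene of limb bud mesenchyme (ENSMUSG00000026586, GRCm38 chromosome 1, 163245119 to 163313710), had the highest level, 318 ± 24.1 TPM (SD, n = 6). It ranked 322 of 13869 tested protein-coding genes. Twist2, a basic helix-loop-helix factor of dermal mesenchyme (ENSMUSG00000007805, chromosome 1, 91801461 to 91848028), followed with 178 ± 61.8 TPM. Together Prrx1 and Twist2 made up 83.9% to 85.8% of the summed TPM of the 10 genes in KO libraries and 76.4% to 79.1% in WT libraries.

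Below them stood Tbx15 (ENSMUSG00000027868, chromosome 3, 99240381 to 99354259), a T-box gene of limb, skin and skeletal mesenchyme, with 54.5 ± 12.1 TPM. Twist1, the partner gene of Twist2 that is also needed for the limb bud and skull sutures (ENSMUSG00000035799, chromosome 12, 33957671 to 33959829), had 32.9 ± 5.03 TPM. Tbx18, a T-box gene of somites, epicardium and ureter mesenchyme (ENSMUSG00000032419, chromosome 9, 87702800 to 87731260), had 14.4 ± 2.89 TPM. The ranges of Tbx15 and Twist1 overlapped between libraries, but Tbx15 was above Twist1 in 6 of 6 libraries. Every other step from Prrx1 down to Tbx5 was without overlap.

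The limb-identity and Msx genes were low. Tbx5 (ENSMUSG00000018263, chromosome 5, 119832668 to 119885219) had 4.36 ± 1.42 TPM, Pitx1 (ENSMUSG00000021506, chromosome 13, 55825051 to 55836192) 2.22 ± 0.828 TPM and Tbx4 (ENSMUSG00000000094, chromosome 11, 85886422 to 85916097) 1.96 ± 0.988 TPM. Msx2 (ENSMUSG00000021469, chromosome 13, 53466884 to 53473074) had 0.85 ± 0.683 TPM and Msx1 (ENSMUSG00000048450, chromosome 5, 37820485 to 37824583) 0.543 ± 0.114 TPM. From Tbx5 downwards the ranges of neighbours overlapped, so their order differed between libraries. Forelimb and hindlimb factors were thus both detected in each library.

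**Figure D1:**
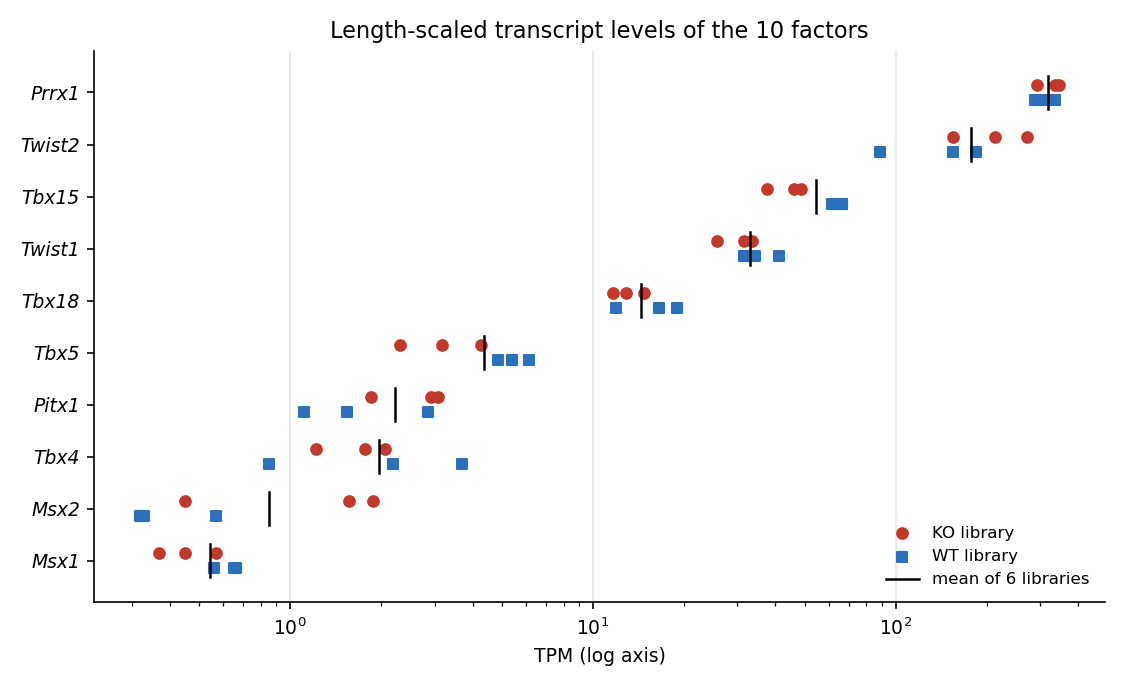
Each point is the TPM of a library on a log axis, KO as red circles and WT as blue squares, and the black line is the mean of the 6 libraries. Prrx1 lies highest at 318 TPM on average and Msx1 lowest at 0.543 TPM, and the KO and WT points of Tbx15 and Tbx5 are apart.

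Tbx15 fell in KO fibroblasts (1.59-fold lower than in WT), and it was the 1 gene of the 10 that passed, against 2.48% of all 16603 tested genes in either direction and 1.55% that were lower. With passage as a block, 3 of the 10 passed (Tbx15 and Tbx5 lower, Msx2 higher in KO), against 11.1% of all genes (4.69% higher and 6.37% lower). Libraries of the same passage deviated together, but only weakly so at passage 3 (r = 0.137). The median log2 change of the 10 was -0.38, and that of all tested genes was -0.01. Values below are CPM after TMM scaling, a correction for library composition, and a log2 change is KO over WT with its standard error (SE).

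Tbx15 had 79.8, 88.8 and 87.8 CPM in the KO libraries of passages 2, 3 and 4, against 127, 140 and 141 CPM in the WT libraries. The KO and WT libraries did not overlap, and the log2 difference within each passage was almost the same, at -0.67, -0.66 and -0.68. The fitted log2 change was -0.67 ± 0.09 (edgeR adjusted p = 0.0185). The call ended without the KO library of passage 2 (adjusted p = 0.0589) or 3 (adjusted p = 0.116), without the WT library of passage 3 (adjusted p = 0.0977) and in limma's fit of log2(TPM + 1) (log2 -0.55, adjusted p = 0.0945), while the log2 change stayed between -0.72 and -0.62 with each library left out. Of the 10 fibroblast markers, 5 also passed as lower in KO and 9 had a negative log2 change. The median log2 change over all 10 markers was -0.94, and whether that list bears on Tbx15 was not tested. In bulk RNA, fewer cells of a type and less RNA per cell cannot be told apart.

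Tbx5, the forelimb factor, had 4.002, 5.81 and 6.04 CPM in the KO libraries, against 8.65, 11.9 and 10.2 CPM in the WT libraries. The genotypes did not overlap, and each KO library was below the WT library of its passage. The log2 change was -0.95 ± 0.21, with adjusted p = 0.066 without the block and 0.0112 with it.

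The hindlimb genes did not pass. Tbx4 had 3.68, 2.90 and 1.88 CPM in KO libraries, against 6.01, 4.31 and 1.53 CPM in WT libraries. It was lower in KO at passages 2 and 3 and higher at passage 4, and the genotypes overlapped (log2 -0.50 ± 0.48, adjusted p = 0.602). Pitx1 had 4.44, 3.82 and 2.26 CPM in KO libraries, against 3.55, 2.40 and 1.61 CPM in WT libraries. Pitx1 was thus higher in KO at each passage while the groups overlapped (log2 0.46 ± 0.36, adjusted p = 0.511). An antisense gene, Gm47071, covers 6.2% of the exonic bases of Pitx1 and had 36.5 to 65.6 expected counts in KO libraries and 11.1 to 34.5 in WT libraries, against 71 to 266 for Pitx1 in KO libraries and 39 to 150 in WT libraries. Whether reads were counted by strand is not given in the sources used here.

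Tbx18, whose protein is closely related to that of Tbx15, had 32.7, 37.6 and 30.5 CPM in KO libraries, against 41.9, 57.7 and 33.6 CPM in WT libraries. It was lower in KO at each passage in CPM, with overlap between the genotypes (log2 -0.40 ± 0.20, adjusted p = 0.294). In TPM it was higher in KO at passage 4 (12.81 against 11.91 in WT). The gene D030062O11Rik on the other strand covers 20.6% of its exonic bases and had 29.9 to 92.1 expected counts in KO libraries and 24.6 to 51.2 in WT libraries, against 906 to 2619 for Tbx18 in KO libraries and 812 to 2305 in WT libraries. How reads in the shared bases were divided is not known here.

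The Twist pair differed in sign. Twist1 had 24.01, 26.9 and 26.6 CPM in KO libraries, against 29.1, 31.98 and 38.7 CPM in WT libraries. The genotypes did not overlap in CPM but did in TPM, and the change did not pass (log2 -0.36 ± 0.13, adjusted p = 0.179, and 0.0780 with the block). Twist2 had 119, 189 and 139.5 CPM in KO libraries, against 62.5, 128.5 and 142 CPM in WT libraries. Its difference was large at passage 2 (log2 0.93), smaller at passage 3 (0.56) and close to 0 at passage 4 (-0.02), and it did not pass (log2 0.43 ± 0.31, adjusted p = 0.482). In TPM Twist2 stayed higher in KO at passage 4 (212.2 against 184.0 in WT). The antisense gene Gm29100 covers 46.5% of the exonic bases of Twist2. It had between 74 and 212 expected counts in KO libraries and between 77.9 and 88.4 in WT libraries. Twist2 itself had 3311 to 13170 in KO libraries and 2643 to 5130 in WT libraries. The ratio of Twist2 to Twist1 in TPM was 6.02, 8.59 and 6.33 in KO libraries, against 2.58, 4.91 and 4.48 in WT libraries, so every KO ratio was above every WT ratio. That ratio was not tested.

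Msx1 and Msx2, homeobox genes known as targets of BMP signalling, also differed in sign. Msx2 had 0.649, 2.04 and 2.29 CPM in KO libraries, from 18, 142 and 72 counts, against 0.4255, 0.501 and 0.786 CPM in WT libraries, from 18, 20 and 19 counts. The KO libraries of passages 3 and 4 stood above all others, while the KO library of passage 2 lay within the WT range. The log2 change was 1.57 ± 0.51, or 2.98-fold higher in KO, with adjusted p = 0.138 without the block and 0.0400 with it. Msx1 had 0.505, 0.373 and 0.5405 CPM in KO libraries, against 0.662, 0.676 and 0.745 CPM in WT libraries. The groups did not overlap in CPM but did in TPM, and with at most 28 counts in a library the change did not pass (log2 -0.57 ± 0.31, adjusted p = 0.333). The ratio of Msx2 to Msx1 in TPM was 1.0, 4.22 and 3.28 in KO libraries, against 0.508, 0.571 and 0.864 in WT libraries, again without overlap and not tested. The nearest values rest on few counts of Msx2 and Msx1. These were 18 and 14 in the KO library of passage 2 and 19 and 18 in the WT library of passage 4. The share of other gene pairs without overlap is not given here.

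Prrx1, the most abundant of the 10, differed least. It had 575, 637 and 573 CPM in KO libraries, against 645, 709 and 564 CPM in WT libraries (log2 -0.10 ± 0.12, adjusted p = 0.660). Its KO and WT values overlapped.

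In all, 4 of the 10 genes (Tbx5, Tbx15, Twist1 and Msx1) had no overlap between KO and WT libraries in CPM, each lower in KO, against 27.2% of all tested genes in either direction and 14.1% lower in KO. In TPM the groups stayed apart for 2 of them, Tbx5 and Tbx15.

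**Figure D2:**
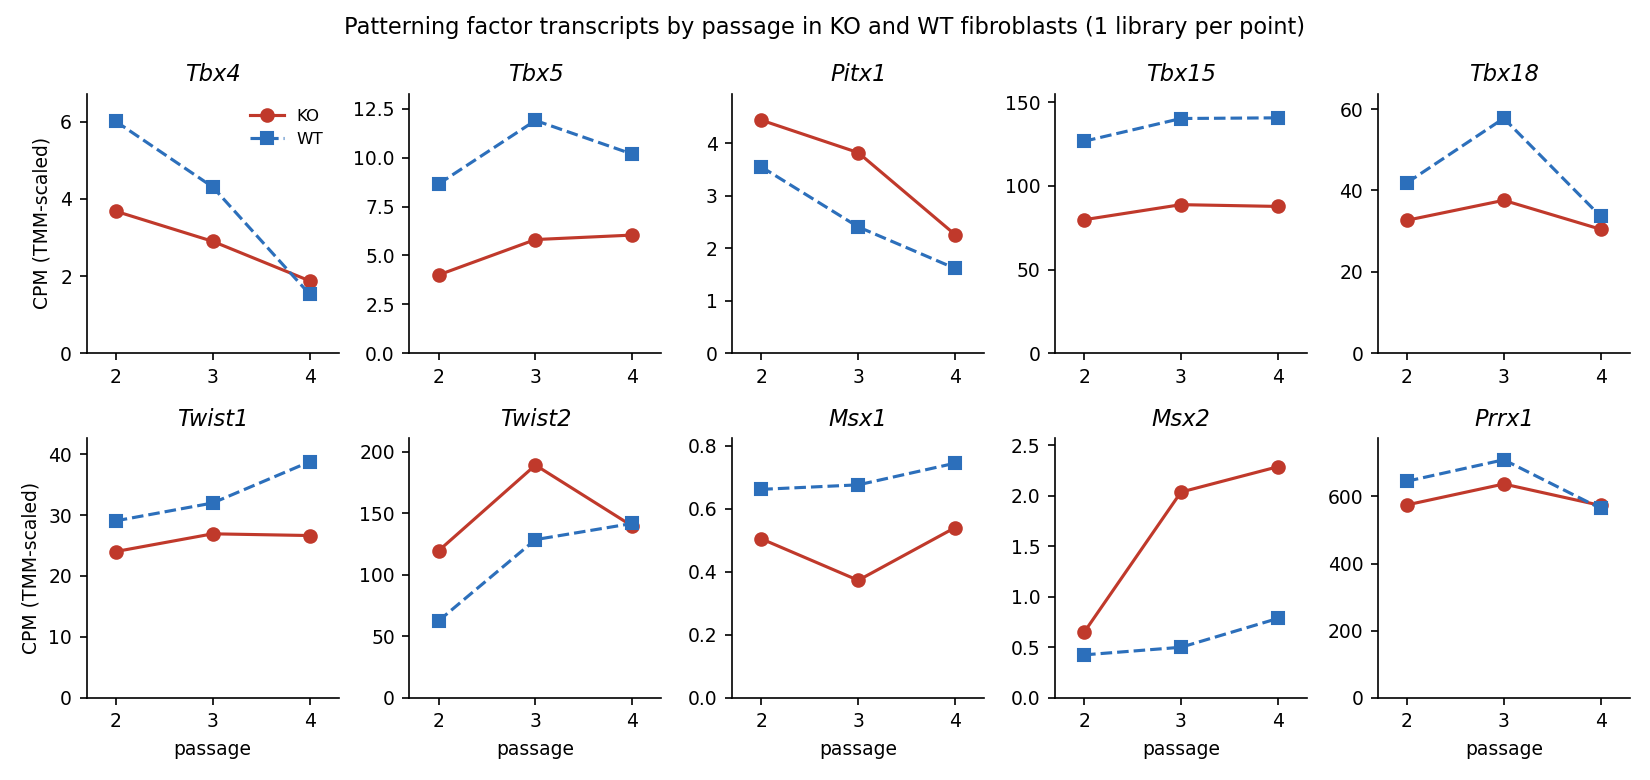
Each panel plots the CPM of a gene against passage, with KO libraries as red circles and WT libraries as blue squares, 1 library per point and the vertical axis starting at 0. Tbx15 and Tbx5 are lower in KO at each passage, Msx2 is higher in KO at passages 3 and 4 (2.04 and 2.29 CPM against 0.501 and 0.786 CPM in WT), and Tbx4 and Pitx1 decline in both genotypes.

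**Figure D3:**
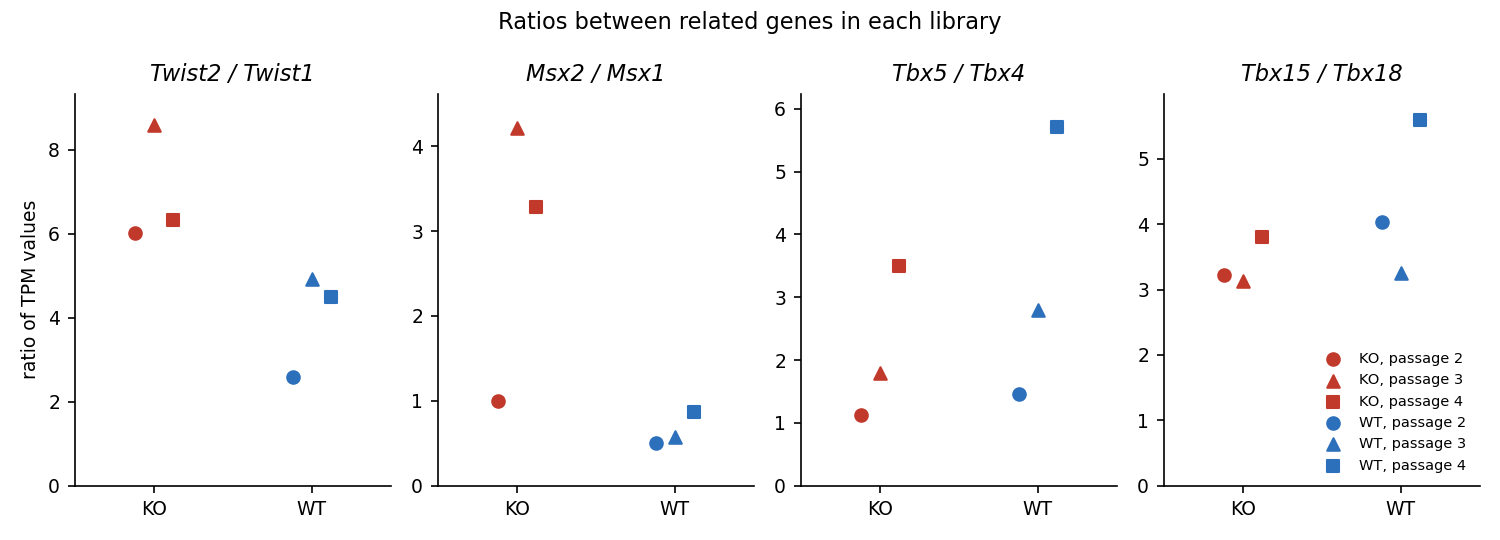
The ratio of TPM values of 4 pairs of related genes is plotted for each library, KO left of WT, with the symbol giving the passage. For Twist2 over Twist1 and for Msx2 over Msx1 all KO points lie above all WT points, whereas Tbx5 over Tbx4 and Tbx15 over Tbx18 overlap. The Msx points rest on few counts, and the share of other gene pairs that lie apart is not given here.

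Passages 2, 3 and 4 allow a test of change with time in culture, as a linear slope per passage with genotype in the model. The hindlimb genes Tbx4 and Pitx1 fell with passage, and they were the 2 of the 10 that passed, against 6.25% of all tested genes in either direction and 3.48% that fell. Both fell at each step in each genotype, which 8.91% of all tested genes did. Tbx4 fell by 0.71 ± 0.16 on the log2 scale per passage (adjusted p = 0.0459), and its passage 4 level was 51% of that at passage 2 in KO and 25.5% in WT. Pitx1 fell by 0.52 ± 0.12 on the log2 scale per passage (adjusted p = 0.0493), to 50.9% in KO and 45.5% in WT.

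Both calls were close to the threshold. With effective transcript lengths as offsets the adjusted p was 0.0511 for Tbx4 and 0.0603 for Pitx1. Leaving out the WT library of passage 3 kept the call of Tbx4 (adjusted p = 0.0353), and leaving out any of the other 5 libraries ended it (adjusted p from 0.0797 to 0.193). Pitx1 lost its call without any of the 6 libraries (adjusted p from 0.0546 to 0.210) and in limma's fit of log2(TPM + 1) (adjusted p = 0.0769).

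Markers of several other cell types fell over the same passages. The 6 macrophage markers, all of which passed, summed to 72.2, 29.8 and 16.6 CPM in KO libraries and 116, 55.9 and 20.9 CPM in WT libraries at passages 2, 3 and 4. The 5 mesothelial and epicardial markers, of which 4 passed, summed to 39.6, 27.9 and 19.2 CPM in KO libraries and 40.0, 26.5 and 13.8 CPM in WT libraries. The 7 epithelial markers, of which 3 of 6 tested passed, summed to 14.03, 8.395 and 3.75 CPM in KO libraries and 19.2, 3.53 and 1.24 CPM in WT libraries. The 5 endothelial markers, of which 2 passed, summed to 21.2, 15.1 and 11.5 CPM in KO libraries and 16.9, 7.04 and 7.62 CPM in WT libraries. This list was split. Pecam1 and Cdh5 fell at each step in both genotypes, Cdh5 from 6.85 to 0.572 CPM in KO and from 5.41 to 0.166 CPM in WT. Kdr and Tek were lowest at passage 3 in each genotype, and Emcn was higher at passage 4 than at passage 2 in each. Of the 5 skeletal muscle markers, 2 were tested and both passed. The sum of the list was 88.4, 61.1 and 17.4 CPM in KO libraries and 46.5, 39.8 and 14.4 CPM in WT libraries. Nearly all of it was Des, with 85.75, 60.67 and 17.14 CPM in KO libraries and 43.0, 39.15 and 14.36 CPM in WT libraries. Myod1 and Myog stayed under 1 CPM in every library, and Myf5 was at 0. The 6 neural and glial markers, of which 1 of 5 tested passed, summed to 75.8, 76.4 and 55.1 CPM in KO libraries and 70.8, 67.8 and 65.02 CPM in WT libraries. The 7 cartilage and bone markers, of which 4 were tested and none passed, summed to 7.43, 8.32 and 8.71 CPM in KO libraries and 6.12, 6.66 and 3.93 CPM in WT libraries, so their KO sum did not decline. The 10 fibroblast markers had a median slope of -0.10 on the log2 scale, and none passed. The part of these cells in the decline of Tbx4 and Pitx1 was not tested.

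**Figure D4:**
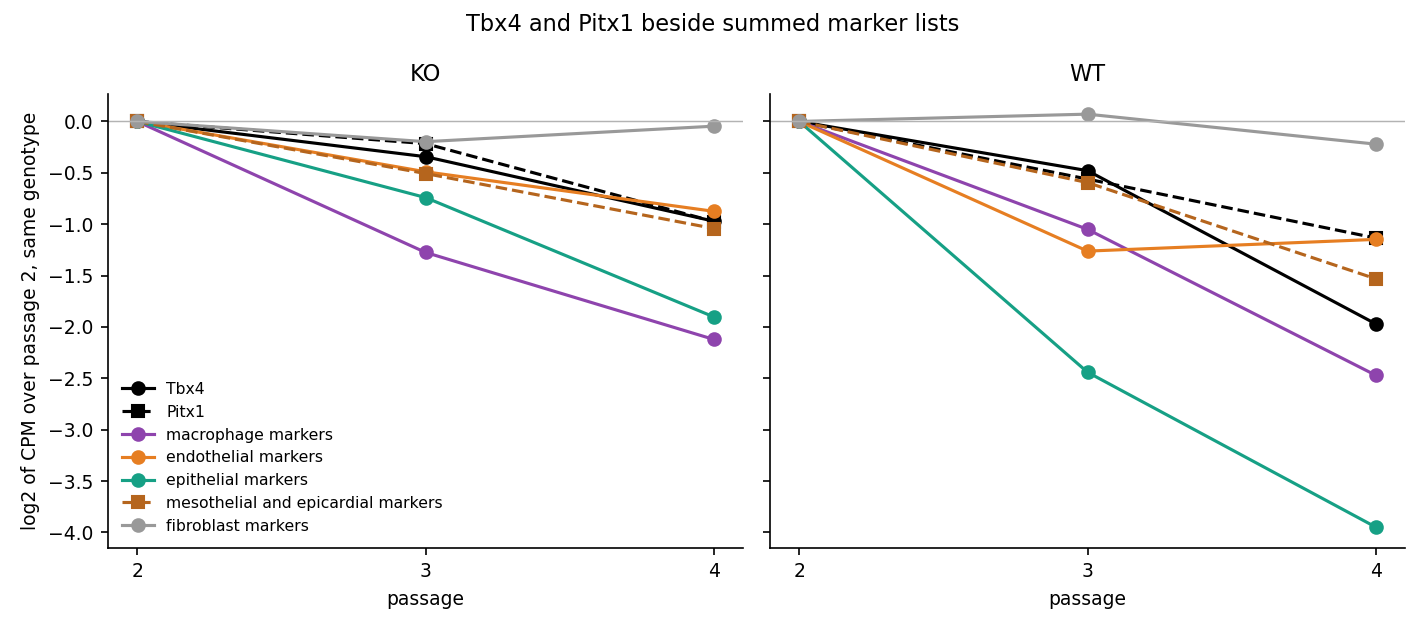
Lines give the log2 ratio of CPM at passages 3 and 4 to the passage 2 library of the same genotype, KO at left and WT at right, for Tbx4, Pitx1 and the summed markers of 5 cell types. Tbx4 and Pitx1 reach -0.97 and -0.97 at passage 4 in KO and -1.97 and -1.14 in WT, while the fibroblast sum stays at -0.05 in KO and -0.22 in WT.

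The other 8 genes did not pass for passage. In CPM, Msx2 was higher at each step in both genotypes, as were 9.47% of all tested genes (log2 0.66 ± 0.22 per passage, adjusted p = 0.133). In TPM the WT libraries had 0.33, 0.32 and 0.57 for Msx2, so the first step did not rise. The WT values of Msx2 were carried by 18, 20 and 19 counts in libraries of unequal depth. Twist2 had a slope of 0.35 ± 0.16 (adjusted p = 0.276), with the passage 4 level at 117% of passage 2 in KO and 227% in WT. Tbx5 (0.20 ± 0.11), Twist1 (0.14 ± 0.06), Tbx15 (0.07 ± 0.05), Msx1 (0.07 ± 0.19), Prrx1 (-0.05 ± 0.07) and Tbx18 (-0.10 ± 0.12) had adjusted p from 0.243 to 0.883. The ratio of Tbx5 to Tbx4 in TPM was 1.12, 1.80 and 3.50 in KO libraries and 1.46, 2.80 and 5.72 in WT libraries at passages 2, 3 and 4. In KO libraries Tbx5 had 2.31, 3.17 and 4.27 TPM and Tbx4 2.06, 1.76 and 1.22 TPM, so both terms moved, and in WT libraries Tbx5 had 5.4, 6.14 and 4.86 TPM and Tbx4 3.69, 2.19 and 0.85 TPM.

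**Figure D5:**
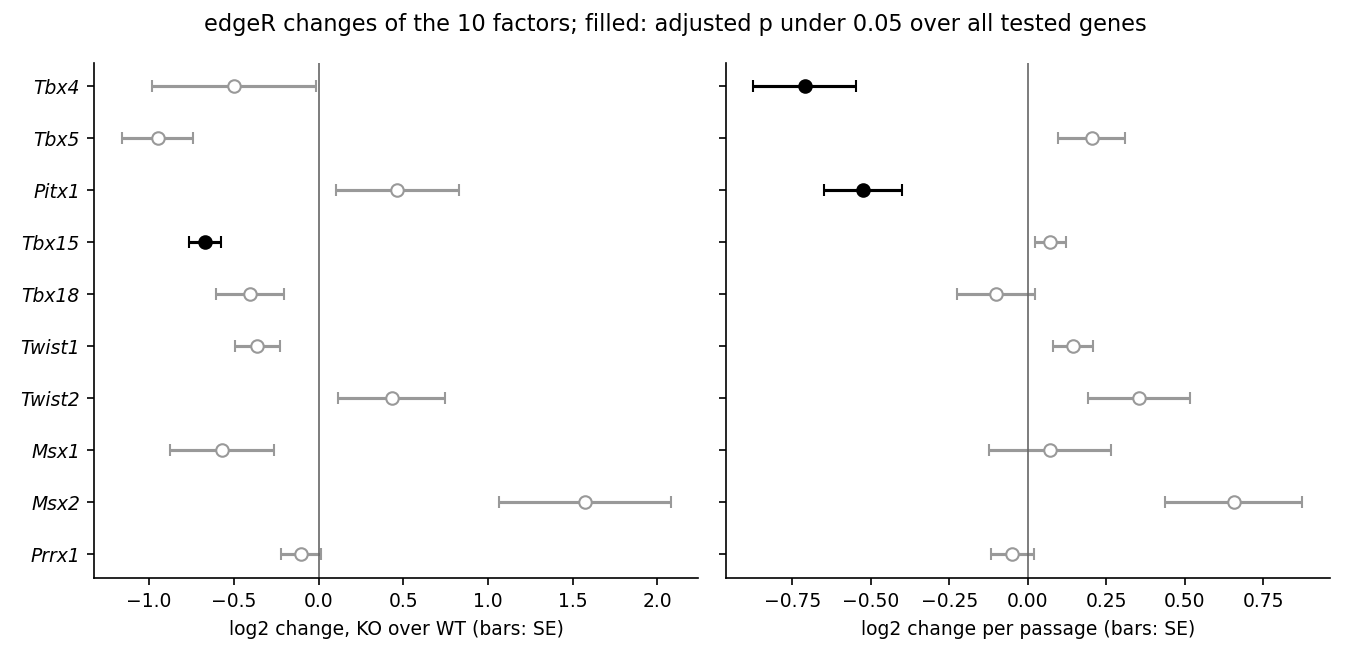
Points are edgeR log2 changes of the 10 genes with SE bars, KO over WT at left and per passage at right, filled where the adjusted p over all tested genes was under 0.05. Tbx15 alone is filled at left (-0.67), and Tbx4 (-0.71) and Pitx1 (-0.52) are filled at right.

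The difference between the KO and WT slopes was tested as an interaction. By edgeR 0 of the 10 genes and 0 of all tested genes passed (0.0%). At an unadjusted p under 0.05 were 0 of the 10 and 1137 of the 16603 tested genes, so few of the 10 would be met at that share. DESeq2 called 83 genes and limma on log2(TPM + 1) called 2, none of them among the 10 (Msx1 had no adjusted p by DESeq2). The steepest differences were for Twist2 (log2 -0.48 ± 0.27 per passage, adjusted p = 0.802) and Tbx4 (0.47 ± 0.30, adjusted p = 0.825). With 2 residual degrees of freedom, differences of this size between slopes were within the error.

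Among 104 other genes of limb and mesenchyme patterning in 6 lists, 83 were tested, and the 2 that passed were both higher in KO, against 2.48% of all tested genes in either direction. Foxc2, a forkhead factor of paraxial mesenchyme, had 6.31, 8.02 and 8.96 CPM in KO libraries, against 3.002, 3.03 and 3.93 CPM in WT libraries (log2 1.23 ± 0.21, adjusted p = 0.0314). Id2, whose protein binds and blocks E-protein partners of basic helix-loop-helix factors, had 22.5, 21.96 and 26.96 CPM in KO libraries, against 14.5, 15.98 and 15.4 CPM in WT libraries (log2 0.64 ± 0.12, adjusted p = 0.0449). Neither gene overlapped between genotypes. The median log2 change of the 83 was -0.06. Id2 was 1 of 10 tested basic helix-loop-helix partners and inhibitors and Foxc2 1 of 19 other mesenchyme regulators, and the rest of the 83 were 21 limb bud regulators, 7 other T-box genes, 15 other mesenchymal homeobox genes and 11 downstream genes. With the passage block 9 of the 83 rose and 8 fell, against 4.69% and 6.37% of all tested genes.

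With passage, 9 of the same 83 genes rose and 4 fell, against 2.78% and 3.48% of all tested genes. Among limb bud regulators Lhx9, a LIM homeobox gene, rose most (1.44, 3.86 and 7.98 CPM in KO and 1.47, 2.51 and 5.38 CPM in WT, log2 1.076 ± 0.125 per passage, adjusted p = 0.00397). The BMP antagonist gene Grem1 (log2 0.45) and the Iroquois homeobox gene Irx5 (log2 0.42) rose as well. Among homeobox genes Prrx2, the relative of Prrx1, rose (log2 0.59 ± 0.09, adjusted p = 0.0123), while Meox2 (log2 -0.78) and Meox1 (log2 -0.73), genes of somite mesenchyme, fell. The inhibitor genes Id4 (log2 0.77) and Id1 (log2 0.60) rose, and so did the cadherin gene Cdh2 (log2 0.27) and the FGF receptor gene Fgfr2 (log2 0.54). Tbx2 (log2 -0.70 ± 0.13, adjusted p = 0.0243), a T-box gene, and Foxp1 (log2 -0.22) fell. The adjusted p of these named genes lay between 0.00397 and 0.0459, and each moved the same way at each step in both genotypes.

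For the 9 genes with a mean of at least 1 CPM, the tested protein-coding genes with the most similar profile over the 6 libraries were listed by Pearson's r of log2 CPM. For Tbx15 they were Prr16 (r = 0.996) and Fto (r = 0.995), for Tbx5 Pop4 (r = 0.996) and Zfp940 (r = 0.992), for Tbx4 Chd4 (r = 0.997), and for Pitx1 Lysmd2 (r = 0.997) and Bex4 (r = 0.995). For Twist1 they were Tbx1 (r = 0.996), another T-box gene, and Zfp954 (r = 0.991), and for Twist2 Dnajc8 (r = 0.992) and Rnasek (r = 0.978). For Msx2 they were Mfap3l (r = 0.993) and Gclm (r = 0.991), for Tbx18 Zfp281 and Clca3a2 (both r = 0.997), and for Prrx1 Acvrl1 (r = 0.994) and Lgi3 (r = 0.991). The points share genotype, passage and library scaling, and between 30 and 242 genes exceeded r = 0.95 with each of the 9, so these are descriptions of 6 libraries only.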

How the data were processed

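RNA of 6 MEF libraries was sequenced. The submitters' processing notes name Trimmomatic 0.39 (a read trimmer), RSEM (an expression estimator) and the build GRCm38. For the annotation release, aligner settings and strand handling, nothing is stated in these notes. The authors' deposited tables hold expected counts, TPM and FPKM per Ensembl gene. FPKM values were deposited by the authors but not used. Of 55487 IDs, 55227 (99.5%) matched GENCODE release M21, which gave symbols and coordinates, while 260 IDs without a match took 0.442% to 0.683% of each library.

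Expected counts were rounded, filtered (filterByExpr by genotype, minimum count 10, 16603 genes left), and TMM-scaled, and edgeR 4.0.16 supplied the quasi-likelihood test (robust, 2-sided, Benjamini-Hochberg over all tested genes, called under 0.05) in R 4.3.3. The genotype fit had 4 residual degrees of freedom, the passage slope fit 3, and the interaction fit and the passage block fit 2 each. SE is the log2 change over the square root of F. DESeq2 1.42.0 and limma 3.58.1 on log2(TPM + 1) were alternatives, beside no filter, upper-quartile scaling, effective lengths, the genotype tag and left-out libraries. Deviations from the group means correlated between KO and WT libraries of the same passage (r = 0.488, 0.137 and 0.416 across genes). A trend with passage shared by both genotypes and a pairing of cultures cannot be told apart by these values. For the 10 genes, blocked values are given where they change a call. On simulated data with known changes the fits recovered direction, but they called unchanged genes more often than the nominal rate, most of all in the interaction fit. No 2 libraries agreed within sampling noise (chi-square per degree of freedom 37.8 or more). Overlapping and antisense genes were read from the annotation.

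The members and lists were chosen with earlier results of these data known. Named genes were all 10 members, other listed genes called for genotype (same sign at 3 passages) or passage (monotone in both genotypes), and the 2 most similar profiles. Of the genes this rule names, 2 are not reported here. Depth limits Msx1 and Msx2 most, whose counts were 14 to 28 and 18 to 142 in a library. Intervals were not computed from counts, since reads without molecular identifiers are not independent molecules.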

Additional observations from a re-analysis of the deposited data

How the results depend on the processing

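The 412 genes called between genotypes became 1661 with DESeq2, 846 without a filter and 1835 with the passage as replicate block. They became 59 without both passage 2 libraries and 38 to 847 with a library left out. Of the 10 patterning genes, 1 was called. The count was 2 with DESeq2 or without a filter (Tbx5 and Tbx15) and 3 with the block (also Msx2). It was 0 on the log2(TPM + 1) scale or without both passage 2 libraries, and 0 to 1 with a library left out. Tbx15 had adjusted p = 0.08585 without both passage 2 libraries. The tag counts the KO libraries of passages 3 and 4 as WT, which leaves the passage 2 library alone as KO. With the tag the log2 change of Tbx15 was -0.55. The 1038 genes called for passage became 1709 with DESeq2, 2443 without a filter and 278 to 1286 with a library left out. Of the 10, 2 were called, 4 without a filter (also Twist2 and Msx2), 0 with effective lengths and 0 to 1 with a library left out. On the log2(TPM + 1) scale Tbx4, Twist2 and Msx2 passed. The 0 genes called for the interaction became 83 with DESeq2, 289 without a filter, 2 on the log2(TPM + 1) scale and 0 to 10 with a library left out, none of them among the 10.

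Signs turned as follows, and the cause was not tested. Between genotypes Prrx1 had a log2 change of 0.06 on the log2(TPM + 1) scale, and with the tag Tbx4 had 0.14, Twist2 -0.15 and Msx2 -0.90. In the interaction Tbx15 had 0.007 with effective lengths and 0.185 on the log2(TPM + 1) scale, where Twist1 had 0.063 and Msx1 0.053. With a library left out, slopes per passage ran from -0.011 to 0.171 for Msx1, -0.212 to 0.058 for Tbx18 and -0.108 to 0.024 for Prrx1. In the same fits interactions ran from -0.041 to 0.995 for Tbx4, -0.209 to 0.499 for Tbx5, -0.194 to 0.351 for Pitx1, -0.118 to 0.079 for Tbx15 and -0.554 to 0.715 for Tbx18. They ran from -1.032 to 0.074 for Twist2, -0.516 to 0.444 for Msx1, -0.278 to 1.205 for Msx2 and -0.178 to 0.314 for Prrx1. The block changed no other call among the 10 than those of Tbx5 and Msx2.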

Other observations

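The mean transcript length that RSEM assigned to a gene differs between libraries where its isoforms take different shares. For Tbx5, with 3 annotated transcripts, it was 2928, 3398 and 2824 bases in KO libraries and 2998, 3012 and 3495 bases in WT libraries of passages 2, 3 and 4. For Prrx1, with 5 annotated transcripts, it was 3305, 3412 and 3392 bases in KO libraries and 3589, 3555 and 3263 bases in WT libraries. Neither gene differed between genotypes without overlap in this length. For Tbx15, with 3 annotated transcripts, it was 3566, 3554 and 3566 bases in KO libraries and 3540, 3528 and 3525 bases in WT libraries, so each KO value was above each WT value by a small margin. These lengths are model estimates per gene and were not tested. The share of all genes whose lengths lie apart in this way is not given here.

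In CPM Prrx1 and Tbx18 were both highest at passage 3 in each genotype. In TPM Prrx1 was highest at passage 2 in WT libraries (334.6, 308.5 and 289.1 TPM at passages 2, 3 and 4). Between Prrx1 and Tbx18, log2 CPM had Pearson's r = 0.953 over the 6 libraries, given as a description of libraries that share their scaling.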
